A study of Mus musculus with 18 samples.

Results

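The Slc25a genes encode the mitochondrial solute carriers, and their transcripts were followed in the hearts of male mice before and after a pressure overload operation and after an activated Akt1 had been switched on. The members were all probe sets of Affymetrix chips 430A and 430B whose only gene symbol is Slc25a followed by a number, with Slc25a4, Slc25a5, Slc25a13 and Slc25a20 left out. A probe set is a group of short oligonucleotides on the chip that is read as 1 transcript signal. This gave 78 probe sets of 40 genes, 50 on chip 430A and 28 on chip 430B, out of 45265 probe sets in all. One further probe set was left out because it carries a symbol beside Slc25a37.

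The carriers of this family are small proteins of the inner mitochondrial membrane, each of which exchanges or imports a narrow set of metabolites. They bring phosphate, adenine and pyrimidine nucleotides, NAD, coenzyme A, amino acids, carboxylates, iron and glutathione across a membrane that is closed to them, and so tie the cytosol to the respiratory chain. Heart muscle depends on this traffic because it makes nearly all of its ATP in mitochondria. A few members lie elsewhere: Slc25a17 sits in the peroxisome membrane and Slc25a46 in the outer mitochondrial membrane.

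All mice carried Tet-myrAkt1, a regulated transgene that makes the kinase Akt1 in an active form, and αMHC-tTA, its driver, which acts in heart muscle cells. The hearts before AAC came from mice aged 8 weeks, the hearts at 4 weeks after AAC from mice aged 12 weeks, and the hearts at 6 weeks after AAC had the transgene on. AAC is the operation behind the pressure overload named in the design. Each of the 3 groups held 3 samples, each called a heart here and read on both chips, and nothing in the labels tells if animals were pooled or if atria were kept, so the p-values measure the spread between these samples, which may be technical. The labels disagree on the last group, with Akt on for 3 weeks in the titles and for 2 weeks in the descriptions, and with an age of 12 weeks that equals that of the 4-week group. For 4-week replicate 3 the title gives 3 and the description 1. No age-matched unoperated mice and no 6-week mice with the transgene off were among the samples, so AAC cannot be told apart from age, nor Akt from the later time. In bulk RNA of a heart, fewer cells of a type and less RNA per cell cannot be told apart.

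Signals were compared as log2(signal + 32), called the log2 level below, and a difference of log2 levels is called a log2 change. Of the member probe sets, 58 of 35 genes lay among the 60% with the highest mean signal on their chip and were tested, 15 of these genes with more than 1 probe set. A probe set is called higher or lower where its limma p, adjusted by Benjamini-Hochberg over all 27083 probe sets tested, was under 0.05. The transgene stood out in its own group: Akt1 probe set 1425711_a_at had log2 levels of 11.37, 11.89 and 12.68 in hearts with Akt on, against 9.24, 9.74 and 9.89 in 4-week hearts, a log2 change of 2.36 (adjusted p = 0.00312). The other tested Akt1 probe sets, 1416657_at and 1440950_at, had log2 changes of 0.0076 (adjusted p = 0.989) and -0.02 (adjusted p = 0.975) in that comparison. Heart muscle markers were strong in every heart, with Myh6 between 14.08 and 14.67. The RNA itself differed between the groups: the log2 ratio of 3' to 5' signal of the Gapdh control lay between -0.272 and -0.171 in 4-week hearts and between -0.306 and -0.105 in hearts with Akt on, against 0.10 to 0.396 before AAC. Neither later group overlapped the hearts before AAC (exact two-sided permutation p = 0.1 for each, the smallest that 3 hearts against 3 allow), and the β-actin control showed the same separation (p = 0.1 for each). The mean log2 level of the atrial transcripts Myl4, Myl7 and Sln ran from 7.36 to 13.87 with Akt on, from 6.43 to 13.80 at 4 weeks and from 7.67 to 14.19 before AAC, so hearts within a group differed far more in it than the groups did (exact p between 0.6 and 0.7). The part of RNA ratio and atrial tissue in the results below was not tested beyond the fits named there.

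Markers of other cells also moved between the groups. Of all tested probe sets, 4.43% were called at 4 weeks against before AAC. With Akt on, 2.54% were called against 4 weeks and 13.4% against before AAC. Of 13 fibroblast probe sets, 5 were higher with Akt on, both against 4 weeks and against before AAC. Each sum below is the log2 of signals added over 1 probe set for each gene, not over all those counted. The constant used in the log2 level was added to each signal. For 6 fibroblast genes the sums were 15.12 to 15.74 with Akt on, 14.63 to 15.26 at 4 weeks and 15.05 to 15.23 before AAC. Of 6 endothelial probe sets, 1 was lower at 4 weeks and 3 with Akt on against before AAC. Sums over 5 genes were 12.38 to 12.44 with Akt on, 12.34 to 12.70 at 4 weeks and 13.01 to 13.14 before AAC. Of 13 heart muscle probe sets, 1 was higher and 1 lower at 4 weeks, and 1 higher and 4 lower with Akt on against before AAC. Sums over 7 genes were 16.91 to 17.19 with Akt on, 17.00 to 17.08 at 4 weeks and 17.28 to 17.42 before AAC. Brown fat markers had sums of 12.85 to 13.28 with Akt on, 13.13 to 13.52 at 4 weeks and 13.59 to 13.85 before AAC. Most of each sum was Cox7a1, which alone ran from 12.50 to 12.98, 12.93 to 13.38 and 13.42 to 13.70 in these groups. The defining gene Ucp1 lay below the signal filter. Of 5 brown fat probe sets, 1 was higher with Akt on against 4 weeks, and 2 were higher and 1 lower against before AAC. Cidea was higher against 4 weeks (log2 change 0.63, adjusted p = 0.0427) and against before AAC (0.48, adjusted p = 0.0468), and Cox7a1, which muscle also expresses, was lower against before AAC (-0.79, adjusted p = 0.00737). The 3 tested probe sets of Dio2 had log2 changes of 0.38 to 1.16 against 4 weeks and of 0.19 to 1.61 against before AAC, where 1 was called (adjusted p = 0.0111). Macrophage markers had sums of 11.86 to 12.38 with Akt on, 11.56 to 12.05 at 4 weeks and 12.14 to 12.37 before AAC, so the 4-week hearts lay below those before AAC, and none of their 4 genes had a probe set called. The part of all these cells in the carrier results was not tested.

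**Figure D1:**
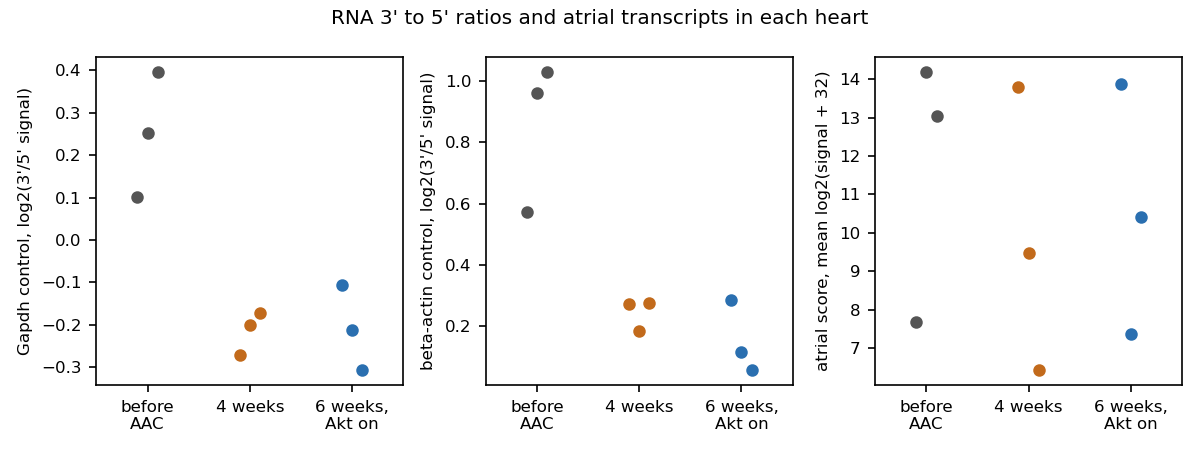
Log2 ratio of 3' to 5' signal of the Gapdh (left) and β-actin (middle) controls and the mean log2(signal + 32) of Myl4, Myl7 and Sln (right) in each of the 9 hearts, by group. Each point is 1 heart. In both ratios the 3 hearts before AAC lie above the other 6, while the atrial value spreads widely within every group.

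Few carriers changed at 4 weeks after AAC. Of the 58 probe sets, 6 were called against before AAC, 3 higher and 3 lower, which is 10.3% of them where 4.43% of all tested probe sets were called (2.75% higher and 1.68% lower). Those higher were both probe sets of Slc25a46 and 1 of Slc25a51, and those lower were the probe sets of Slc25a22 and Slc25a45 and 1 of Slc25a3. An unadjusted p under 0.05 was reached by 19 probe sets (32.8%, beside 21.7% of all tested). The 3 hearts of a group lay wholly apart from those of the other in 22 probe sets, 7 higher and 15 lower, where 29.3% of all tested probe sets did so. The median log2 change of the members was -0.01, beside -0.04 for all tested probe sets.

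With Akt on, set against the 4-week hearts, 1 of the 58 was called, a lower probe set of Slc25a3, which is 1.72% where 2.54% of all tested probe sets were called (1.46% lower). An unadjusted p under 0.05 was reached by 10 (17.2%, beside 17% of all tested). The hearts lay apart in 12 probe sets, 4 higher and 8 lower, where 20.6% of all tested probe sets did. The median log2 change was 0.01, beside 0.02 for all.

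Set against before AAC, hearts with Akt on had 8 called probe sets, 3 higher and 5 lower, which is 13.8% where 13.4% of all tested probe sets were called (6.86% higher and 6.51% lower). This share is close to that of all probe sets. Slc25a17, Slc25a46 and Slc25a51 were higher, and Slc25a33, Slc25a34, Slc25a3, Slc25a12 and Slc25a29 lower, with 1 probe set each. There were 19 with an unadjusted p under 0.05 (32.8%, beside 28% of all tested) and 22 whose hearts lay apart, 10 higher and 12 lower, where 32.1% of all tested probe sets lay apart. The median log2 change was -0.03, beside -0.01 for all. The 3 comparisons share hearts pair by pair, so their values stand side by side below and were not correlated.

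**Figure D2:**
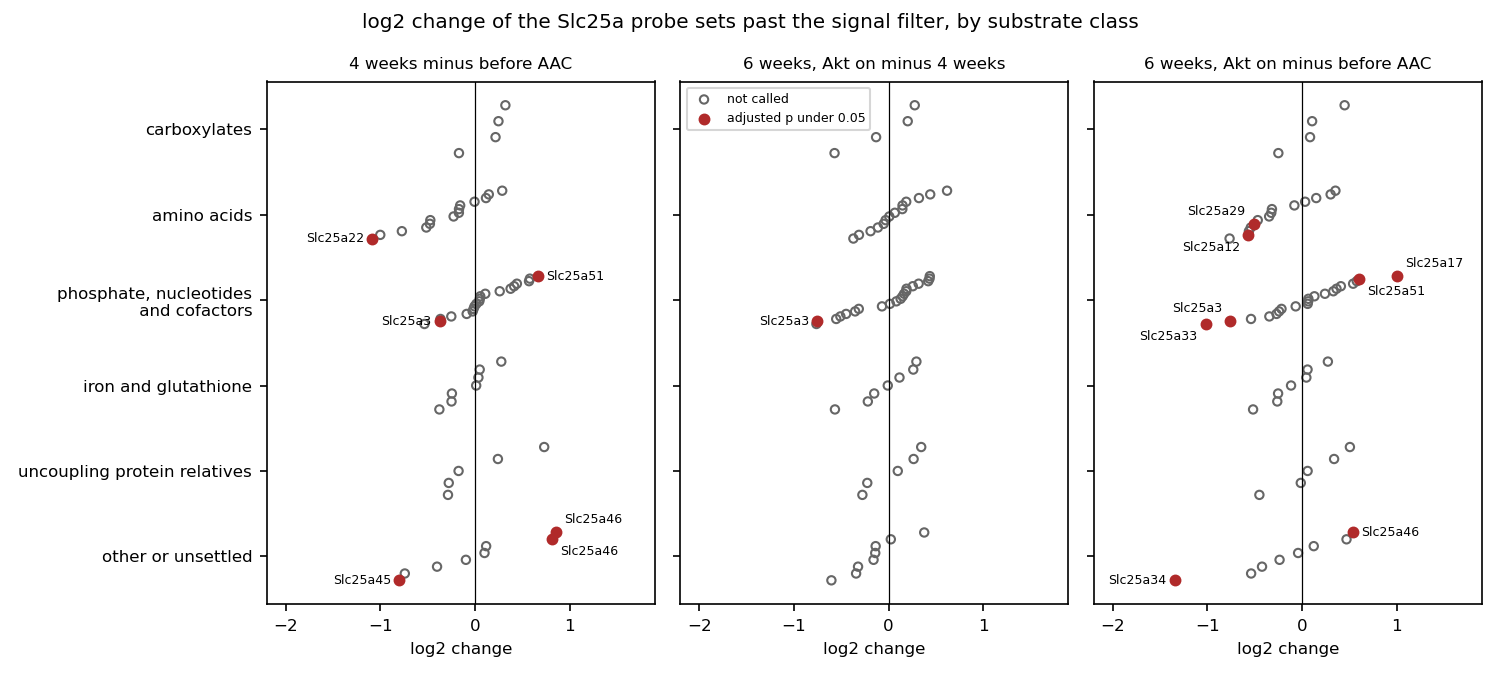
Log2 change of each of the 58 tested Slc25a probe sets in the 3 comparisons (panels), grouped by the substrate of the carrier. Filled red points have an adjusted p under 0.05 and carry the gene name. Calls lie on both sides of 0 in the first and last panel, and the middle panel has 1 call, for Slc25a3.

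The carriers of phosphate, nucleotides and cofactors held 20 of the 58 tested probe sets and 7 of the 15 calls made over the 3 comparisons. Their 20 probe sets of 12 genes had 1 higher and 1 lower at 4 weeks against before AAC. With Akt on, 1 was lower against 4 weeks, and 2 were higher and 2 lower against before AAC. These counts are 10%, 5% and 20% of the 20, beside 4.43%, 2.54% and 13.4% of all tested probe sets. Probe sets 1440302_at of Slc25a3 and 1454712_at of Slc25a51 each hold 2 of the 7 calls, in comparisons that share hearts.

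Slc25a33, a carrier of pyrimidine nucleotides that is needed to make mitochondrial DNA and RNA, was lower in hearts with Akt on. Its log2 levels were 8.96, 8.49 and 9.04 with Akt on, against 9.82, 9.87 and 9.84 before AAC. No heart with Akt on reached the lowest heart before AAC, and the hearts before AAC lay close together. The log2 change was -1.01 (SE 0.189, 2.02-fold lower, adjusted p = 0.00603), and it remained called when any 1 of the 9 hearts was left out, with a highest adjusted p of 0.0275. The 4-week hearts had 9.80, 9.21 and 9.77, so 2 of them lay next to the hearts before AAC and replicate 2 lay between the groups. Against these 4-week hearts the log2 change with Akt on was -0.76 (SE 0.189, adjusted p = 0.0563), short of the threshold, and without 4-week replicate 2 it was -0.96 (adjusted p = 0.0303). At 4 weeks against before AAC the log2 change was -0.25 (adjusted p = 0.479).

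The bases before the RefSeq start of Slc25a33 are shown because its fall was the most stable of the family, beside those of Slc25a34, whose fall was the largest, and of Slc25a3, which had a call in each of the 3 comparisons. Each line gives the 250 bases before the start on GRCm38.p6, minus strand, 5′ to 3′: chr4:149774268-149774517 for Slc25a33, chr4:141623835-141624084 for Slc25a34 and chr10:91123968-91124217 for Slc25a3. Capitals mark a match to any of 8 motifs.
Slc25a33: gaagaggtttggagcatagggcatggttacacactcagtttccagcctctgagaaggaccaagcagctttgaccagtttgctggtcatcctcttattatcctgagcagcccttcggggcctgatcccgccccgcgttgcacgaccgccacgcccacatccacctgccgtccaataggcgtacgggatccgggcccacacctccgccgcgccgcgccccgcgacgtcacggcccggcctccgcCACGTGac
Slc25a34: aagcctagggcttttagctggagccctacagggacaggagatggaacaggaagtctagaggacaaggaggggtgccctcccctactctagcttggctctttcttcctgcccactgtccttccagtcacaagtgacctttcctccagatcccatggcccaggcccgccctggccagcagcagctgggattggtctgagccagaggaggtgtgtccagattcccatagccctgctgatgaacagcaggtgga
Slc25a3: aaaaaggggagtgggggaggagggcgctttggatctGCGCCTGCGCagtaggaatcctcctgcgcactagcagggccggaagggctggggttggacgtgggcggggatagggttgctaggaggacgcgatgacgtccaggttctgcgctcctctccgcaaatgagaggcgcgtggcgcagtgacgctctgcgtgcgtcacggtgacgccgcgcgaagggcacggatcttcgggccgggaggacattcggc
The search ran over both strands of the 300-base windows, 250 before to 50 after the start, of 39 RefSeq starts for 30 of the 40 member genes. In Slc25a33 the capitals mark an E-box, CACGTG, the site of the Myc family and related factors, which begins 8 bases before the start. E-boxes stood in 7 of the 39 windows (17.9%) and in 7.15% of all 32851 windows. The 7 windows were of Slc25a1, Slc25a14, Slc25a15, Slc25a31, Slc25a33 and Slc25a36, with some genes having several starts. Among these genes only Slc25a33 had a call, and Slc25a14 and Slc25a31 were not tested. In Slc25a3 the capitals mark the motif of NRF-1, a factor known for genes of the respiratory chain. It stood in 2 of 39 windows, those of Slc25a3 and Slc25a31, and in 4.6% of all. The window of Slc25a34 held none of the 8. CRE, TGACGTCA, stood in 2 of 39 (1.79% of all), and ACGTGC, the hypoxia response core, which overlaps an E-box followed by C, stood in 2 of 39 (5.91% of all). No member window held the motif of NRF-2, CCGGAAGT (3.89% of all), of FoxO factors, GTAAACA (3.65%), of ERR, TNAAGGTCA (1.28%), or of PPAR (0.0396%). A match is a run of letters and was not tested against binding.

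Slc25a3, the carrier that brings phosphate to ATP synthase, was read by 2 probe sets that differed. Their mean signals were 147 at 1440302_at and 24249 at 1416300_a_at, on chips scaled to different constants. Probe set 1440302_at on chip 430B had log2 levels of 6.95, 6.68 and 7.17 with Akt on, against 7.61, 7.77 and 7.67 at 4 weeks, and 7.49, 7.86 and 7.72 before AAC. The hearts with Akt on lay below all 6 others, and the 4-week hearts overlapped those before AAC. Its log2 change with Akt on was -0.75 (SE 0.182, 1.68-fold lower, adjusted p = 0.0493) against 4 weeks and -0.76 (1.69-fold lower, adjusted p = 0.0171) against before AAC. The first of these calls was lost when any 1 of the 9 hearts was left out (adjusted p between 0.0540 and 0.141). The second was lost without before-AAC replicate 2 (adjusted p = 0.0714) or 3 (0.0663) or Akt-on replicate 2 (0.0606).

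Probe set 1416300_a_at of Slc25a3, on chip 430A, had log2 levels of 14.30, 14.42 and 14.46 at 4 weeks, against 14.82, 14.69 and 14.77 before AAC. The groups did not overlap, and the log2 change was -0.37 (SE 0.0943, 1.29-fold lower, adjusted p = 0.0478). This value depends on the scaling of the arrays: with quantile scaling the log2 change was -0.01 (adjusted p = 0.942). The call was also lost without any 1 of the 6 hearts compared or Akt-on replicate 3 (adjusted p between 0.0589 and 0.148). With Akt on it had 14.39, 14.64 and 14.53, a log2 change of 0.13 (adjusted p = 0.542) against 4 weeks and -0.24 (adjusted p = 0.113) against before AAC. Under quantile scaling that last value was 0.05.

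Slc25a51, the carrier of NAD, was higher in both later groups in 1 of its 2 tested probe sets. Probe set 1454712_at had log2 levels of 9.56, 10.02 and 9.93 at 4 weeks, against 9.17, 9.14 and 9.21 before AAC. The groups did not overlap, and the log2 change was 0.67 (SE 0.155, 1.59-fold, adjusted p = 0.0354). With Akt on the levels were 9.68, 9.64 and 9.99, also above all hearts before AAC, with a log2 change of 0.60 (1.51-fold, adjusted p = 0.0259). Against 4 weeks the log2 change was -0.07 (adjusted p = 0.870). The 4-week call was lost without any 1 heart before AAC or without 4-week replicate 2 or 3 (adjusted p between 0.0805 and 0.130), and the call with Akt on without any 1 heart before AAC or Akt-on replicate 3 (0.0674 to 0.0945). The other probe set, 1433816_at, had log2 changes of -0.02, 0.08 and 0.07 at 4 weeks against before AAC, with Akt on against 4 weeks and in hearts with Akt on set against before AAC (adjusted p between 0.874 and 0.978).

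Slc25a17, the peroxisomal carrier of coenzyme A, FAD and NAD, was higher with Akt on. Its log2 levels were 8.26, 7.58 and 8.00 with Akt on, against 6.41, 7.42 and 7.0 before AAC. The groups did not overlap but came close, at Akt-on replicate 2 and before-AAC replicate 2. The log2 change was 1.00 (SE 0.270, 2.00-fold, adjusted p = 0.0303). It was lost without before-AAC replicate 1 (log2 change 0.74, adjusted p = 0.0937) or 3 (0.0770), or Akt-on replicate 1 (0.0830) or 3 (0.0866). The 4-week hearts, at 7.59, 7.60 and 7.36, overlapped both. The log2 changes were 0.57 (adjusted p = 0.247) at 4 weeks against before AAC and 0.43 (adjusted p = 0.456) with Akt on against 4 weeks. The mean signal of 1424912_at, 156, was near the lowest kept on chip 430A, 127.3. Its signals were 53.3, 139.8 and 96.3 before AAC and 275.4, 159.9 and 223.9 with Akt on. At 4 weeks they were 160.7, 162.5 and 132.0. Its place past the filter thus rests on the hearts with Akt on, where it was high, so its call is not independent of the filter. With no filter on low signal the call was lost (adjusted p = 0.0596). The counts of calls given above include it. The other probe set, 1450353_at, lay below the filter and was not tested. Its mean log2 level was 6.81 before AAC, 5.93 at 4 weeks and 5.91 with Akt on.

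The other carriers of this group were not called in any comparison. Slc25a42, a carrier of coenzyme A, had log2 changes of -0.37, 0.15 and -0.22 at 1424790_at and of 0.26, 0.32 and 0.58 at 1443637_at, in the order 4 weeks against before AAC, Akt on against 4 weeks and Akt on against before AAC (adjusted p of 0.131 or more). The S-adenosylmethionine carrier Slc25a26 came near the threshold at 4 weeks in 1428929_s_at (log2 change 0.58, adjusted p = 0.0569) and not in 1453886_a_at (0.05, adjusted p = 0.897). Probe set 1419657_a_at of Slc25a36, the other pyrimidine nucleotide carrier, had log2 levels of 9.05, 9.09 and 9.11 before AAC, 9.45, 9.56 and 9.57 at 4 weeks and 8.83, 9.12 and 9.09 with Akt on. The 4-week hearts were thus the highest in that probe set, with log2 changes of 0.44 (adjusted p = 0.0776) against before AAC and of -0.51 (adjusted p = 0.0659) with Akt on against 4 weeks. The other probe sets of Slc25a36 were at 0.11 (1419656_at) and 0.04 (1438520_at) in the first of these comparisons and at 0.26 and -0.31 in the second, where the 3 probe sets did not share a sign. The calcium-regulated carriers of ATP-Mg and phosphate, Slc25a23, Slc25a24 and Slc25a25, had log2 changes between -0.55 and 0.42 over the 3 comparisons. Slc25a32, a carrier of folate or FAD, lay between -0.35 and 0.43, and Slc25a16, whose substrate is not settled, between 0.16 and 0.54.

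Among the amino acid carriers, 14 probe sets of 7 genes were tested and every call was lower. The calls were 1 at 4 weeks, 0 with Akt on against 4 weeks and 2 with Akt on against before AAC. In the same order 7, 1 and 5 had an unadjusted p under 0.05, beside 21.7%, 17% and 28% of all tested. The calls are 7.14%, 0% and 14.3% of the 14 probe sets, beside 4.43%, 2.54% and 13.4% of all tested. Slc25a22, which carries glutamate into mitochondria, had log2 levels of 9.37, 9.72 and 9.45 at 4 weeks, against 10.89, 10.64 and 10.27 before AAC. The groups lay clearly apart, with a log2 change of -1.09 (SE 0.190, 2.12-fold lower, adjusted p = 0.0151), the largest fall of the family at 4 weeks. Leaving out before-AAC replicate 2 took it past the threshold (log2 change -1.07, adjusted p = 0.0590), and the other 8 fits without 1 heart kept the call. With Akt on its levels were 9.89, 10.06 and 10.45. These lay above every 4-week heart and overlapped the hearts before AAC. The log2 change was 0.62 against 4 weeks (SE 0.190, adjusted p = 0.116), the largest rise in value of the family there, and -0.47 against before AAC (adjusted p = 0.128).

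Slc25a12, the aspartate-glutamate carrier of the malate-aspartate shuttle, was read by 3 tested probe sets that ran in different directions. Their mean signals were 297 at 1444489_at, 3195 at 1428440_at and 392 at 1436440_at. Probe set 1444489_at had log2 levels of 8.34, 7.87 and 8.17 with Akt on, against 8.82, 8.65 and 8.61 before AAC. The groups did not overlap, and the log2 change was -0.57 (SE 0.162, 1.48-fold lower, adjusted p = 0.0366). The call was lost without any 1 heart before AAC or without Akt-on replicate 2 or 3 (adjusted p between 0.0787 and 0.125). At 4 weeks this probe set had 8.19, 8.05 and 8.30, also below all hearts before AAC (log2 change -0.52, adjusted p = 0.0879). Its log2 change with Akt on against 4 weeks was -0.05 (adjusted p = 0.911). Probe set 1428440_at had 11.59, 11.85 and 11.91 with Akt on, against 11.40, 11.50 and 11.40 before AAC. Its log2 change was 0.35 (adjusted p = 0.0971), and 0.45 (adjusted p = 0.0377) without Akt-on replicate 1, so the probe sets of this gene ran in opposite directions. The last probe set, 1436440_at, had a log2 change of 0.30 (adjusted p = 0.330). At 4 weeks against before AAC, 1428440_at was at 0.29 (adjusted p = 0.225) and 1436440_at at 0.12 (adjusted p = 0.781).

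Slc25a29, a carrier of basic amino acids, was lower in value in all 4 of its tested probe sets with Akt on against before AAC, with log2 changes between -0.56 and -0.32. One was called: 1438187_at had log2 levels of 9.35, 9.51 and 9.85 with Akt on, against 10.18, 10.0005 and 10.05 before AAC, a log2 change of -0.51 (SE 0.150, 1.42-fold lower, adjusted p = 0.0436). That call is fragile, since 8 of the 9 fits without 1 heart lost it and only the fit without Akt-on replicate 3 kept it (adjusted p between 0.0521 and 0.129 in the others). At 4 weeks, probe set 1423981_x_at had levels of 7.84, 6.89 and 7.73, against 8.47, 8.23 and 8.77 before AAC. These groups did not overlap, and the log2 change of -1.0 (SE 0.275) missed the threshold (adjusted p = 0.0611). The suffix _x_at marks probes that may also bind other transcripts. Probe set 1438187_at had 9.68, 9.46 and 9.67 at 4 weeks, also below all hearts before AAC (log2 change -0.48, adjusted p = 0.0915). Its log2 change with Akt on against 4 weeks was -0.03 (adjusted p = 0.946). At 4 weeks 1438188_x_at lay apart from before AAC too (-0.47, adjusted p = 0.0927), while 1423980_at was at -0.006 (adjusted p = 0.996).

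Of the other amino acid carriers, Slc25a44, which carries branched-chain amino acids, had its lowest values at 1456465_at. The log2 change there was -0.77 both at 4 weeks (adjusted p = 0.133), where the hearts did not overlap with those before AAC, and with Akt on set against before AAC (adjusted p = 0.0952). Its other 2 tested probe sets were at -0.23 and -0.17 at 4 weeks and at -0.08 and 0.15 with Akt on. Slc25a38, a glycine carrier needed for heme synthesis, had log2 changes between -0.35 and -0.16, the ornithine carrier Slc25a15 between -0.11 and 0.14, and the glutamate carrier Slc25a18 between -0.54 and -0.17. None of these was called.

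**Figure D3:**
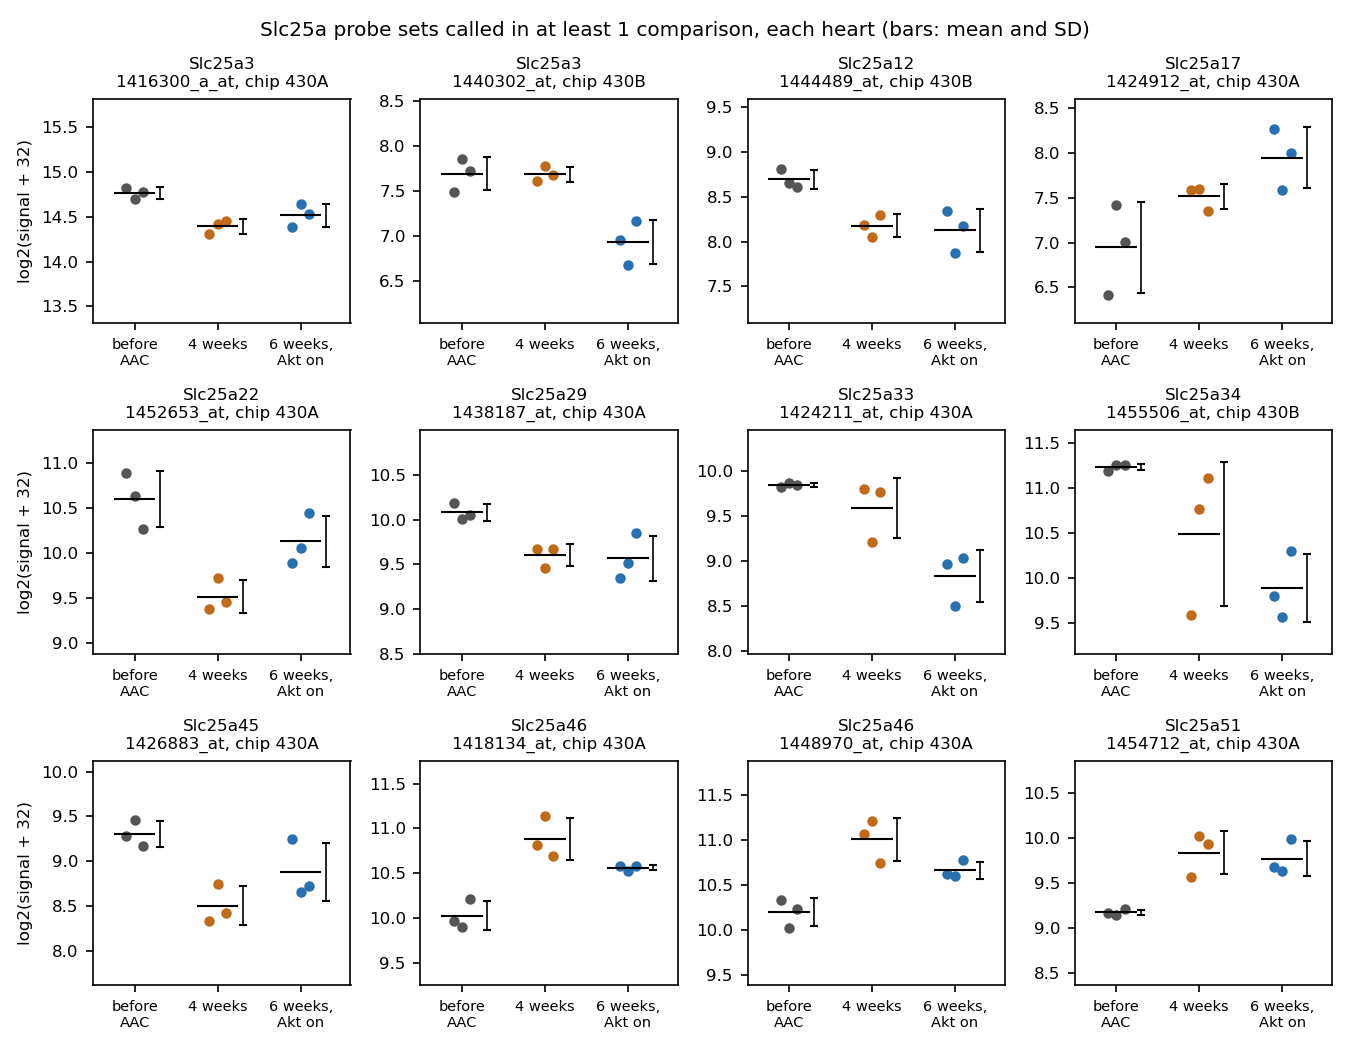
Log2(signal + 32) of the 12 Slc25a probe sets called in at least 1 comparison, in each of 9 hearts, by group. Points are hearts, horizontal lines are means and vertical bars are SDs (n = 3). Each panel spans 2.5 log2 units. Slc25a33 and Slc25a34 have their lowest means with Akt on, and Slc25a22 has its lowest mean at 4 weeks.

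None of the 4 tested probe sets of carboxylate carriers was called in any comparison, and the number with an unadjusted p under 0.05 was 0, 1 and 0. Slc25a11, the oxoglutarate-malate carrier that works with Slc25a12 in the shuttle, had log2 levels of 11.84, 12.47 and 12.44 with Akt on, against 12.68, 12.79 and 12.98 at 4 weeks. The groups did not overlap, but the log2 change of -0.57 (SE 0.165) was short of the threshold (adjusted p = 0.0973). Before AAC its levels were 12.66, 12.39 and 12.44. Slc25a1, the citrate carrier that supplies fatty acid synthesis, had 8.86, 9.01 and 9.02 with Akt on, against 8.26, 8.71 and 8.58 before AAC. These groups lay apart with a log2 change of 0.45 (SE 0.223, adjusted p = 0.213). The dicarboxylate carrier Slc25a10 had log2 changes between -0.17 and 0.28 over its 2 probe sets.

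The carriers of iron and glutathione gave no call among 7 probe sets, and 1, 1 and 2 of them had an unadjusted p under 0.05 in the 3 comparisons. Slc25a37 (mitoferrin 1), which imports iron for heme and iron-sulfur clusters, had log2 levels of 8.05, 8.76 and 8.45 before AAC, 8.42, 8.33 and 8.66 at 4 weeks and 8.11, 7.46 and 8.14 with Akt on. Hearts with Akt on lay below every 4-week heart, with a log2 change of -0.57 (SE 0.228, adjusted p = 0.226). The erythroid gene Alas2, whose cells also use mitoferrin 1, had a log2 change of -0.99 in the same comparison (adjusted p = 0.0939). Of 9 erythroid genes listed, 4 had a probe set, and only Alas2 passed the signal filter. The hearts of these groups overlapped in Alas2 and in the untested Hba-a1, Slc4a1 and Ermap. The part of erythroid cells in the Slc25a37 value was not tested. Slc25a28 (mitoferrin 2) had log2 changes of -0.24, -0.01 and -0.25. Slc25a39, a glutathione carrier, had its lowest value at 4 weeks in 1439410_x_at, at 12.88, 12.75 and 13.04 against 13.31, 13.19 and 13.30 before AAC. This log2 change of -0.38 (SE 0.109, adjusted p = 0.0694) stood beside values of 0.28, 0.04 and -0.25 at its other 3 tested probe sets. The related Slc25a40 had log2 changes of 0.01, 0.26 and 0.27.

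The relatives of the uncoupling proteins gave no call among 5 probe sets, with an unadjusted p under 0.05 in 1, 1 and 0 of them. Slc25a27, which is known from brain, had the third largest rise in value at 4 weeks, a log2 change of 0.73 at 1431201_at (SE 0.307, adjusted p = 0.190). Its other tested probe set was at -0.17 in the same comparison. Slc25a30 had log2 changes between -0.29 and 0.34 over 3 probe sets.

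The remaining carriers, with 8 tested probe sets of 7 genes, had 2 higher and 1 lower at 4 weeks. With Akt on, 0 were called against 4 weeks. Against before AAC, 1 was higher and 1 lower with Akt on. In that order 4, 2 and 5 had an unadjusted p under 0.05, beside 21.7%, 17% and 28% of all tested. The calls are 37.5%, 0% and 25% of the 8 probe sets, beside 4.43%, 2.54% and 13.4% of all tested. Slc25a34, whose substrate is not settled, had log2 levels of 9.80, 9.56 and 10.30 with Akt on, against 11.19, 11.25 and 11.25 before AAC. The groups lay far apart, with the hearts before AAC close together, and the log2 change was -1.35 (SE 0.310, 2.54-fold lower, adjusted p = 0.0143), the largest fall of the family. It was lost only without Akt-on replicate 2 (log2 change -1.18, adjusted p = 0.0577) among the 9 fits without 1 heart. The 4-week hearts were far apart, at 9.59, 10.77 and 11.12. Their log2 change against before AAC was -0.74 (adjusted p = 0.186). Without the lowest of them, 4-week replicate 1, the log2 change with Akt on against 4 weeks was -1.06 (adjusted p = 0.0267), against -0.60 (adjusted p = 0.348) with it.

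Slc25a46, which acts in the shape and fusion of mitochondria rather than in transport, was higher at 4 weeks in both of its probe sets. Probe set 1418134_at had log2 levels of 10.82, 11.14 and 10.69 at 4 weeks, against 9.97, 9.90 and 10.21 before AAC, with a log2 change of 0.86 (SE 0.144, 1.81-fold, adjusted p = 0.0139). Probe set 1448970_at had 11.07, 11.21 and 10.75 at 4 weeks, against 10.33, 10.02 and 10.23 before AAC, with a log2 change of 0.81 (SE 0.147, 1.76-fold, adjusted p = 0.0162). In both, every 4-week heart lay above every heart before AAC. Both calls were lost without before-AAC replicate 2 (adjusted p = 0.0583 and 0.0719) or 4-week replicate 2 (0.0584 and 0.0739), and that of 1448970_at also without before-AAC replicate 3 (0.0630) or 4-week replicate 1 (0.0533). With Akt on the levels were 10.58, 10.53 and 10.58 at 1418134_at and 10.62, 10.60 and 10.77 at 1448970_at. These stood above all hearts before AAC, with log2 changes of 0.53 (adjusted p = 0.0303) and 0.47 (adjusted p = 0.0549). The call at 1418134_at was lost without before-AAC replicate 1 or 2 or any 1 heart with Akt on (adjusted p between 0.0524 and 0.111). Against 4 weeks the log2 changes with Akt on were -0.32 and -0.34 (adjusted p = 0.280 and 0.260).

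Slc25a45, whose substrate is not settled, had log2 levels of 8.33, 8.75 and 8.43 at 4 weeks, against 9.28, 9.46 and 9.17 before AAC. The groups did not overlap, and the log2 change was -0.80 (SE 0.184, 1.74-fold lower, adjusted p = 0.0343). It was lost without any 1 of the 6 hearts compared (adjusted p between 0.0696 and 0.118). With Akt on its levels of 9.25, 8.66 and 8.73 lay between the other groups and overlapped both, with log2 changes of 0.38 (adjusted p = 0.327) and -0.42 (adjusted p = 0.155). Slc25a53 had log2 changes between -0.54 and -0.14, Slc25a35 between -0.24 and -0.10, Slc25a47 between 0.02 and 0.12 and Slc25a48 between -0.16 and 0.12, with no call.

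Where a gene had several probe sets, their log2 changes often differed in sign. A sign was counted however near 0 the value was, as at 1433816_at of Slc25a51 at 4 weeks (-0.02). The same count was not made over all genes, so nothing particular to the carriers can be read from it. Of the 15 genes with more than 1 tested, all probe sets had the same sign in 6 at 4 weeks against before AAC, in 5 with Akt on against 4 weeks and in 7 with Akt on against before AAC. Slc25a46 was the only gene with more than 1 probe set called in the same direction in the same comparison. Slc25a12, Slc25a29 and Slc25a51 were each called in 1 probe set and not in the others. Both probe sets of Slc25a3 were called, but never in the same comparison. The signals do not say which transcripts each probe set reads.

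**Figure D4:**
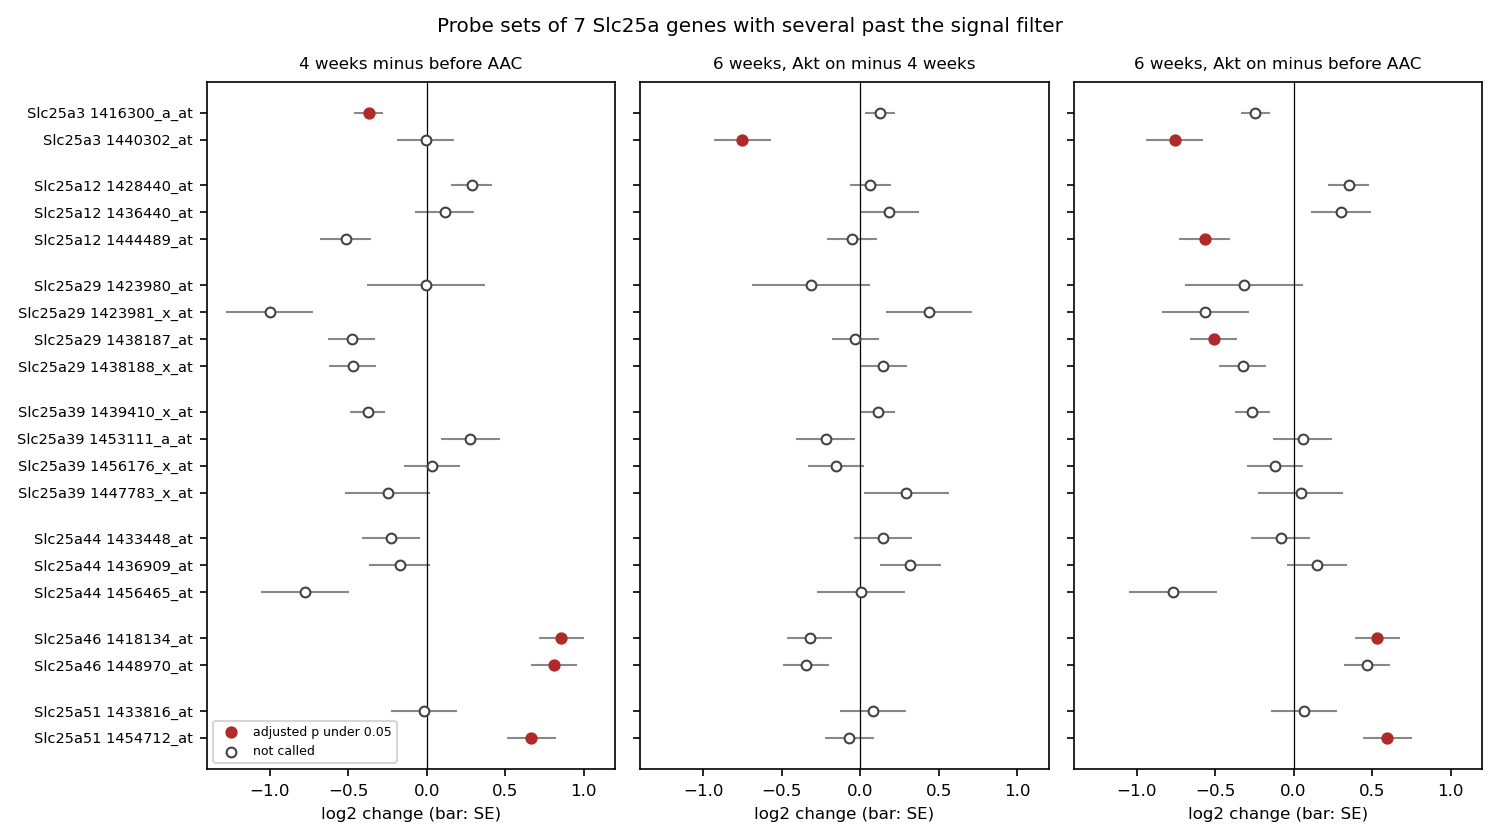
Log2 change of each tested probe set of 7 Slc25a genes in the 3 comparisons (panels), with bars of 1 SE. Filled red points have an adjusted p under 0.05. The 2 probe sets of Slc25a46 lie together in every panel. Those of Slc25a3 lie apart in every panel, and those of Slc25a12 and Slc25a51 in the first and last.

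The 20 probe sets below the signal filter were not tested. Slc25a2, Slc25a14, Slc25a31, Slc25a41 and Slc25a54 had no other probe set. Slc25a31 is the testis form of the ADP/ATP carrier, and its probe set stayed between 5.14 and 6.12. That of Slc25a41 stayed between 5.15 and 5.37, close to the level of 5 that a signal of 0 would give. Over all 20 the log2 levels ran from 5.07 to 8.07. The ornithine carrier Slc25a2 had 6.33 to 6.85 at 4 weeks and 7.32 to 7.41 before AAC, values that carry no test.

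A pair of other fits bears on the calls that involve the hearts before AAC. With the Gapdh 3' to 5' ratio as a covariate, 0 of the 58 members and 0 of all 27083 probe sets were called in either comparison with before AAC. The hearts before AAC lie apart from all others in that ratio. The log2 changes in that fit were -1.09 for Slc25a33 and -1.06 for Slc25a34 with Akt on, and -2.02 for Slc25a22 and 1.08 for Slc25a46 (1418134_at) at 4 weeks. The other probe set of Slc25a46, 1448970_at, was at 0.53 at 4 weeks and Slc25a45 at -0.48, both smaller than reported above, while Slc25a17 was at 1.71 with Akt on. All 15 calls kept their sign in that fit. Without the 4 hearts richest in atrial transcripts, before-AAC replicates 2 and 3, 4-week replicate 1 and Akt-on replicate 1, a choice made after seeing the data, 1 heart before AAC was left and assumed to vary like the others. No member was then called, and 5, 100 and 245 of all probe sets were. In that fit the log2 changes were -1.06 for Slc25a33 and -1.26 for Slc25a34 with Akt on, and -1.31 for Slc25a22 and 0.94 for Slc25a46 at 4 weeks.

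Other mitochondrial transport and assembly genes were counted beside the carriers. A list of 25 other membrane transporters and channels, with 34 probe sets of 19 genes tested, had 2 higher and 2 lower at 4 weeks (11.8%, where 4.43% of all tested probe sets were called). Mtch2, a carrier relative of the outer membrane, was higher (log2 change 0.68, adjusted p = 0.0333), and Ucp3, an uncoupling protein, and Vdac1, a pore of the outer membrane, were lower (-0.85, adjusted p = 0.0254, and -0.43, adjusted p = 0.0267). With Akt on against 4 weeks 2 were higher and 1 lower (8.82%, beside 2.54% of all): the ion exchanger Letm1 (0.70, adjusted p = 0.0184), another probe set of Ucp3 (1.06, adjusted p = 0.0381) and the pore Vdac3 (-0.60, adjusted p = 0.0228). Against before AAC 2 were higher and 2 lower (11.8%, beside 13.4% of all), with the smallest p at Letm1 (0.50, adjusted p = 0.0252) and Vdac3 (-0.44, adjusted p = 0.0311), followed by Vdac1 (-0.32, adjusted p = 0.0379). The widest of the 4 was probe set 1420658_at of Ucp3, at 0.79 (adjusted p = 0.0436). The probe set of Ucp3 that was lower at 4 weeks, 1420657_at, did not share this rise. Its log2 levels were 9.27, 8.68 and 9.20 with Akt on and 9.16, 9.28 and 9.11 before AAC, which overlapped. Depending on which 1 heart was left out, the calls in this list ran from 0 to 4, 0 to 3 and 0 to 4 in the 3 comparisons.

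The list for the machinery that imports carriers into the inner membrane, of 17 genes, had 31 tested probe sets of 13 genes, of which 6 were higher and 0 lower at 4 weeks (19.4%, beside 4.43% of all tested probe sets), and 14 had an unadjusted p under 0.05 (45.2%, beside 21.7% of all). The 6 belong to 2 genes only: 4 to Tomm20 and 2 to Tomm70a, the receptors of the outer membrane that bind incoming precursors. Tomm20 (1423080_at) had log2 levels of 11.43, 11.39 and 11.20 at 4 weeks, against 10.47, 10.40 and 10.32 before AAC. The groups were wide apart, with a log2 change of 0.94 (adjusted p = 0.00981). Tomm70a (1426675_at), the receptor that carrier precursors use, had 10.05, 10.07 and 10.01 at 4 weeks, against 9.33, 9.17 and 9.23 before AAC, a log2 change of 0.80 (adjusted p = 0.0104). With Akt on this probe set had 9.18, 9.41 and 9.32, below every 4-week heart, with a log2 change of -0.74 (adjusted p = 0.0106). Timm10, a chaperone of the space between the membranes, was the other one lower in that comparison (-0.73, adjusted p = 0.0331). Probe set 1417192_at of Tomm70a had 7.87, 7.84 and 8.02 with Akt on, which overlapped the 4-week hearts at 7.75, 8.22 and 8.20. It was still higher with Akt on against before AAC (log2 change 0.69, adjusted p = 0.0445). Against before AAC 6 probe sets were higher and 1 lower (22.6%, beside 13.4% of all). With 1 probe set a gene the calls were 2 higher at 4 weeks, 2 lower with Akt on against 4 weeks, and 2 higher and 1 lower against before AAC. Leaving out 1 heart moved the count at 4 weeks between 0 and 10 and the last count between 0 and 8.

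Heme and iron-sulfur cluster genes, a list of 20 with 29 tested probe sets of 17 genes, had 3 higher and 0 lower at 4 weeks, 1 lower with Akt on against 4 weeks, and 7 higher and 1 lower against before AAC. These are 10.3%, 3.45% and 27.6% of the list, beside 4.43%, 2.54% and 13.4% of all tested probe sets. The 3 at 4 weeks belong to 2 genes, Fech and Isca1, and with 1 probe set a gene every higher call of the list was lost, leaving 0 calls at 4 weeks and 1 lower in each of the other comparisons. Fech, which puts iron into heme, had log2 levels of 9.22, 9.61 and 9.48 at 4 weeks in 1418698_a_at, against 8.11, 8.20 and 8.38 before AAC. No hearts overlapped, and the log2 change was 1.21 (adjusted p = 0.00547). Probe set 1423652_at of Isca1, a carrier of iron-sulfur clusters, had a log2 change of 1.42 (adjusted p = 0.00863) at 4 weeks. With Akt on against before AAC it was 1.09 (adjusted p = 0.00664). Iscu, the scaffold of cluster assembly, was lower with Akt on against 4 weeks (-0.64, adjusted p = 0.0407). Alad, an early enzyme of heme synthesis, had a log2 change of 0.85 in the last comparison (adjusted p = 0.00731).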

How the data were processed

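RNA of 9 hearts was read on 18 arrays, chips 430A and 430B for each. The deposited values are signal intensities that the authors made with MAS5, per the submitters' processing notes. The MAS5 version and target are not given in the sources used here. Per the labels' protocols, total RNA was extracted with Ultraspec-II and labelled with biotin. The 2% trimmed mean was 500.2 on every 430A array and 122.5 on every 430B array, so each chip had been scaled to a constant. The number of arrays limits the precision, with a median SE of a log2 change of 0.180 on 430A and 0.221 on 430B.

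From these values log2(signal + 32) was computed, 128 control probe sets were left out and the 60% with the highest mean signal on each chip were kept, 27083 in all. Each chip was fitted with limma 3.58.1 in R 4.3.3 over all 3 groups (eBayes with a variance trend), and p-values were adjusted by Benjamini-Hochberg over both chips together. The fit was tested on simulated data. Symbols came from the platform annotation, and all 40 member symbols are in the RefSeq table. Single values per heart were compared by an exact two-sided permutation test (SciPy 1.17.1). Named were every member with a call, 10 members chosen by role, the 3 largest rises and falls of each comparison, and up to 3 genes for each further list and comparison. The members and lists were chosen with earlier results of these data known. Replicate numbers did not pair the hearts. Alternatives covered scaling, pseudocount, filter, variance model, covariates, a replicate block, 1 probe set a gene and each heart left out.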

Additional observations from a re-analysis of the deposited data

How the results depend on the processing

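Over 24 alternative settings, 1613 values of 69 single probe set results held 0 changes of sign among called values, 124 lost calls and 13 gained ones. Calls are given in the order 4 weeks against before AAC, Akt on against 4 weeks and Akt on against before AAC, and were 6, 1 and 8 as reported. They were 3, 0 and 6 with no filter, 10, 2 and 8 with adjustment within each chip, 5, 2 and 5 with 1 probe set a gene, and 5, 0 and 8 with quantile scaling. They were 7, 2 and 8 with the top 40% by signal, 6, 0 and 8 with a pseudocount of 64, 4, 0 and 6 without the variance trend, 6, 0 and 6 with only the 2 groups compared, and 4, 0 and 9 with 4-week replicates 1 and 3 averaged. They were 7, 2 and 9 with the atrial score as a covariate, 0, 0 and 0 with the Gapdh ratio as a covariate, and 0, 0 and 0 without the 4 hearts with the highest atrial score. Leaving out each heart gave 0 to 8, 0 to 1 and 3 to 8. Same-numbered hearts did not deviate together (r between -0.239 and 0.143, with 17 of 18 pairs under 0.1), and with a replicate block the calls were 4, 0 and 6. A pseudocount of 16 and chip 430B on the scale of 430A kept 6, 1 and 8. Causes were not tested. Over all 27083 probe sets, leaving out a heart moved the calls between 118 and 1799, 239 and 642, and 1696 and 4083, from 1199, 688 and 3623. Low signal near the pseudocount limits what can be seen of the 20 untested probe sets.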
